A study of Mus musculus with 6 samples.

Results

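The antigen receptor of T cells and the first steps of its signalling were followed through 10 genes of the deposited mouse lymph node table: Cd3d, Cd3e, Cd3g, Cd247, Tcrb, Lck, Zap70, Lat, Cd5 and Cd6. They were chosen by gene symbol from the 50559 genes of the table, and Tcrb is the row of the whole receptor beta locus. RNA sequencing covered 6 inguinal lymph node libraries, 3 labelled Control and 3 labelled Naringin. Naringin, the bitter flavanone glycoside of grapefruit, was mixed into the food at 200 mg/kg per day, and the comparison asks how the node's transcripts differ with it in the diet. Strain, sex, age, length of feeding and the Control diet could not be read from the labels. Whether each library is a different mouse is not stated either, so p-values here measure only the spread between these libraries, which may be technical.

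T cells recognise peptides held by MHC molecules through a receptor of alpha and beta chains, which have no signalling parts of their own. The CD3 delta, epsilon and gamma chains and the zeta chain (encoded by Cd247) carry the signal inwards: the kinase Lck phosphorylates tyrosine motifs in their tails, the kinase ZAP-70 docks there and phosphorylates the membrane scaffold LAT, and LAT gathers the enzymes that drive calcium and Ras signalling. CD5 and CD6 are scavenger receptor family proteins of the T cell surface that tune this signal. In a lymph node, naive T cells use the receptor to scan dendritic cells and to receive the weak self signals that keep them alive. Several of the genes are not exclusive to T cells, since natural killer cells also use Cd247, Lck, Zap70 and Lat, and some B cells carry Cd5.

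Promoter windows are shown first, and their relation to the levels of the 10 genes was not tested. Of the 10 genes, 8 had an entry in the RefSeq promoter table (GRCm38.p6, an older build than the files' mm39), with 11 start sites, and the 250 bases before each start were searched on both strands. Capitals mark the word AGGAAG or its reverse complement CTTCCT, which holds the core bound by ETS family factors. The first is the minus strand window of Cd3e, chr9:45009612-45009861. The second is the plus strand window of Cd247, chr1:165788431-165788680. The third is the minus strand window of an Lck start, chr4:129573642-129573891. The last is the minus strand window of Cd5, the gene with the largest difference between the groups, chr19:10738975-10739224.
Cd3e: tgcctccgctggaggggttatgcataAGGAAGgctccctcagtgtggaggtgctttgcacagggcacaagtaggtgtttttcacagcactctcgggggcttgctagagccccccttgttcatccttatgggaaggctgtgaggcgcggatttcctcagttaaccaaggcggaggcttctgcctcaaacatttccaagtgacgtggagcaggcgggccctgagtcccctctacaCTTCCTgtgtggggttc
Cd247: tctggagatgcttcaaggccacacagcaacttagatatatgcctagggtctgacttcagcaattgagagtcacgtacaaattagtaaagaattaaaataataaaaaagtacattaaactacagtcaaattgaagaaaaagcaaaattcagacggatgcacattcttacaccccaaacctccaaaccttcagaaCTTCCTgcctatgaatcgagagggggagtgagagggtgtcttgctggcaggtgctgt
Lck: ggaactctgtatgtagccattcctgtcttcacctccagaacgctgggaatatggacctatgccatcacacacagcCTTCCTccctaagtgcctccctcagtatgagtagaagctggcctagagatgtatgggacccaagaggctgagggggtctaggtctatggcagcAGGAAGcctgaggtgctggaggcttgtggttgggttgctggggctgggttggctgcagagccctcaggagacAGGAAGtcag
Cd5: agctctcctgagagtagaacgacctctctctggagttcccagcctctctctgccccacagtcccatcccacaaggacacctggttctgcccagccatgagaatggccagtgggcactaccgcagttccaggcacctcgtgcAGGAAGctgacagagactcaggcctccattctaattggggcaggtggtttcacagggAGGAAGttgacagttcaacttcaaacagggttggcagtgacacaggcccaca
The ETS word stood in the windows of 7 of the 8 genes, Cd3g being the exception, and in 9 of 11 windows, against 29.5% of all 32851 windows of the same length. In the windows shown, the nearest ETS word began 17 bases before the start in Cd3e, 57 in Cd247, 10 in Lck and 52 in Cd5. In windows not shown it began 198 bases before the start in Cd3d, 114 in Lat and 114 at the other Lck start. For Zap70 it began 134 and 38 bases before different starts, and a further Zap70 start had none. The E protein word CAGGTG stood in 6 of the 8 genes and in 7 of 11 windows, against 17.2% of all windows. TGTGGT of RUNX factors and CTTTGA of TCF1 and LEF1 stood in 2 of 11 windows each, against 14.0% and 13.8% of all windows, and AGATAA of GATA factors in 1 of 11, against 9.99%. The words were chosen after the windows were seen, none was tested, and a match does not show that a factor binds.

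Values are counts scaled to 1000000 reads assigned to genes (CPM). Each library gave between 13074180 and 14976422 recovered reads, and each of the 10 genes had 1628 to 30579 of them. The fewest reads, for Zap70 in Naringin 1, gave 109 CPM with an exact Clopper-Pearson 95% interval from 104 to 115 CPM that covers counting error only, whereas the SD between the 3 Naringin libraries was 18.6 CPM. One library, Control 3, stood apart from the rest. Over tested genes with an exon length, the median deviation of log2(CPM + 1) from the 6-library mean in Control 3 was 0.17 for genes in the lowest quartile of length and -0.30 for those in the highest, against -0.070 to 0.0048 and 0.0063 to 0.16 in the other libraries. The 19 listed cytosolic ribosomal protein genes summed to 46354 CPM there, against 31884 to 37509 CPM elsewhere. The part of these shifts in the values of the 10 genes was not tested. With a smooth trend on gene length removed from each library, an alternative chosen after seeing the data, the 9 genes with a length kept log2 folds below 0.

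With naringin in the diet, all 10 genes had lower mean log2 levels than in Control, but no gene passed the test. The test ran on log2(CPM + 1), where a log2 fold is the Naringin mean minus the Control mean on that scale. The log2 folds ran from -0.40 for Cd5 to -0.075 for Tcrb, with a median of -0.23, against a median of 0.025 over all 14873 tested genes. Of these tested genes, 43.3% had a log2 fold below 0. The genes of one cell type share its abundance, so the 10 directions are not independent of each other. In bulk tissue, fewer T cells in a node and less of these RNAs per T cell cannot be told apart.

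By limma with Benjamini-Hochberg adjustment over all tested genes, 0 of the 10 genes passed a threshold of 0.05, and the adjusted p was 0.9996 for each of them. The background was 0%, since 0 of 14873 genes passed. At an unadjusted p under 0.05 there was 1 gene of the 10, Cd5, against 1.43% of tested genes in either direction and 0.457% in the lower direction. With 3 libraries a group, an exact permutation test of a single gene cannot go below 0.1. On the recovered reads, edgeR called 0 genes and DESeq2 3, none of them among the 10.

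The 3 CD3 chain genes, which lie together on one chromosome and pair as delta with epsilon and gamma with epsilon, overlapped between the groups. Cd3d stood at 182, 171 and 239 CPM in Control 1, 2 and 3 and at 156, 154 and 204 CPM in Naringin 1, 2 and 3. Control 3 was the highest library, and Naringin 3 lay above Control 1 and Control 2. The means were 197 ± 36.6 and 171 ± 28.2 CPM (SD, n = 3 each), and the log2 fold was -0.20 ± 0.18 (SE), or -0.055 without Control 3 and -0.33 without Naringin 3.

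Cd3g stood at 202, 195 and 239.9 CPM in Control and 161, 163 and 214 CPM in Naringin. The order of the libraries was close to that of Cd3d, with Control 3 and Naringin 3 at the top. Its means were 212 ± 24.2 and 179 ± 29.8 CPM (SD, n = 3 each), and the log2 fold was -0.25 ± 0.16 (SE), or -0.16 without Control 3 and -0.38 without Naringin 3.

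Cd3e, the chain shared by both CD3 pairs, departed from the other two. It stood at 231, 209.8 and 207 CPM in Control and at 197, 156 and 248 CPM in Naringin. Its highest and lowest libraries were both of the Naringin group, with Naringin 1 and 2 below all Control values and Naringin 3 above them. The log2 fold was -0.13 ± 0.18 (SE, n = 3 each), and it turned to 0.034 without Naringin 2 and was -0.30 without Naringin 3. The ratio of Cd3e to Cd3d lay between 1.22 and 1.27 in 4 libraries, at 1.01 in Naringin 2 and at 0.867 in Control 3.

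Cd247, which encodes the zeta chain, stood at 136, 142 and 158 CPM in Control and 116, 119 and 144 CPM in Naringin. Naringin 1 and 2 lay below the Control range and Naringin 3 inside it. The means were 146 ± 11.2 and 126 ± 15.02 CPM (SD, n = 3 each), and the log2 fold was -0.21 ± 0.14 (SE). Per unit of summed CD3 delta, epsilon and gamma signal, Cd247 stayed between 0.216 and 0.252 in all 6 libraries, with Control and Naringin interleaved.

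The Tcrb row, the beta chain locus, was the exception to the shared pattern. It stood at 2339, 2077 and 871 CPM in Control and at 1447, 1295 and 1930 CPM in Naringin. Control 1 and 2 were the highest libraries and Control 3 was the lowest of all, whereas for 7 of the other 9 genes Control 3 was the highest. The log2 fold of -0.075 ± 0.36 (SE, n = 3 each) had a 95% interval from -0.89 to 0.74, the widest of the 10. On recovered reads it was -0.17 in edgeR and -0.19 in DESeq2. Leaving out Control 3 gave -0.52, leaving out Naringin 3 gave -0.24 and leaving out Naringin 1 gave -0.033. The value was above 0 when Control 1 (0.19), Control 2 (0.10) or Naringin 2 (0.047) was the one left out.

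The alpha chain locus Tcra placed the 6 libraries in the same order as Tcrb, at 208, 179 and 82.2 CPM in Control and 103, 99.4 and 151 CPM in Naringin. Divided by the CD3 sum of the same library, Tcrb was 3.80, 3.61 and 1.27 in Control and 2.81, 2.74 and 2.90 in Naringin. Tcra divided in the same way was 0.338, 0.310 and 0.120 in Control and 0.201, 0.210 and 0.227 in Naringin. For both loci, the Naringin libraries were close to each other and lay between Control 3 and the other two Control libraries. The rows of the constant segments Trac, Trbc1 and Trbc2 are listed at 0 in all 6 libraries, so each locus is read here from its locus row alone.

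**Figure D1:**
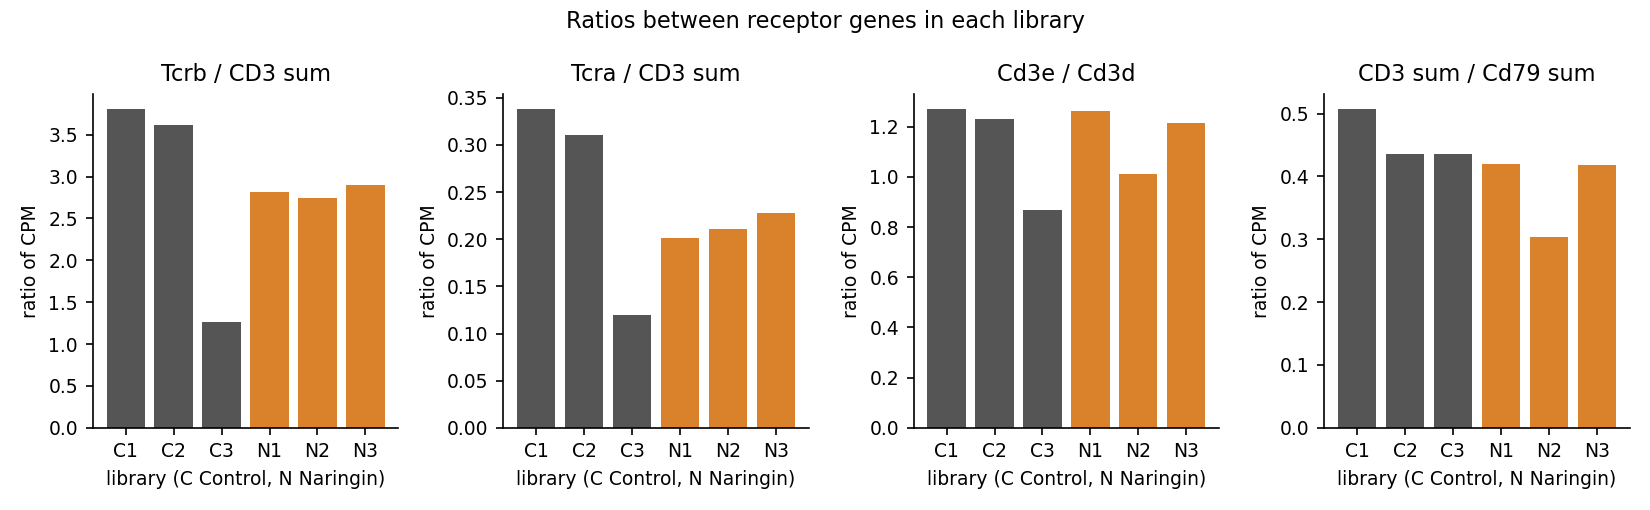
Ratios of CPM in each library (C for Control, N for Naringin, 1 bar per library): Tcrb and Tcra over the sum of Cd3d, Cd3e and Cd3g, Cd3e over Cd3d, and the CD3 sum over the sum of Cd79a and Cd79b. Control 3 has the lowest bar for the first 3 ratios (1.27, 0.120 and 0.867).

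Lck, the Src family kinase that starts the cascade, stood at 465, 423 and 466 CPM in Control and 355, 349.7 and 466 CPM in Naringin. Naringin 1 and 2 lay below all Control values and Naringin 3 matched the top of the Control range. The means were 451 ± 24.4 and 390.2 ± 65.3 CPM (SD, n = 3 each), and the log2 fold was -0.22 ± 0.15 (SE). It was -0.35 without Naringin 3.

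Zap70, the kinase that docks on phosphorylated CD3 and zeta tails, stood at 148, 128 and 157 CPM in Control and 109, 112 and 143 CPM in Naringin. Naringin 3 lay inside the Control range and the other two below it. The means were 144 ± 14.8 and 121 ± 18.6 CPM (SD, n = 3 each), and the log2 fold was -0.25 ± 0.15 (SE). The ratio of Lck to Zap70 stayed between 2.97 and 3.31 in the 6 libraries.

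Lat, the scaffold phosphorylated by ZAP-70, stood at 305, 287 and 369.7 CPM in Control and 234, 242 and 329.6 CPM in Naringin. As for Cd3d and Cd3g, Control 3 was the highest library, followed by Naringin 3. The means were 321 ± 43.5 and 269 ± 52.8 CPM (SD, n = 3 each), and the log2 fold was -0.26 ± 0.17 (SE), or -0.16 without Control 3 and -0.42 without Naringin 3.

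Cd5 was the member whose groups did not overlap, with every Naringin value below every Control value. It stood at 169, 163 and 169.9 CPM in Control, an SD of 3.69 CPM, and at 119.7, 116 and 147 CPM in Naringin, an SD of 16.7 CPM (n = 3 each). A lack of overlap in the lower direction was found in 2.29% of tested genes. The log2 fold was -0.40 ± 0.13 (SE), with a 95% interval from -0.70 to -0.093 before any adjustment over genes. It stayed between -0.50 and -0.33 when each library was left out in turn, and its smallest adjusted p by limma, edgeR or DESeq2 over all alternatives was 0.398.

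Cd6, a relative of Cd5 encoded beside it, stood at 177, 169.5 and 168 CPM in Control and 133, 122 and 169.9 CPM in Naringin. The Control values were close together and Naringin 3 lay among them. The means were 172 ± 4.801 and 142 ± 25.03 CPM (SD, n = 3 each), and the log2 fold was -0.29 ± 0.15 (SE), or -0.19 without Naringin 2. The ratio of Cd5 to Cd6 was 0.952, 0.962 and 1.01 in Control and 0.897, 0.953 and 0.864 in Naringin. Cd5 divided by the CD3 sum was 0.274, 0.283 and 0.248 in Control and 0.233, 0.246 and 0.221 in Naringin. These groups lay apart by a narrow margin, and the share of tested genes apart on this ratio was not counted. Cd6 divided in the same way overlapped, at 0.288, 0.295 and 0.246 in Control and 0.259, 0.258 and 0.255 in Naringin.

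**Figure D2:**
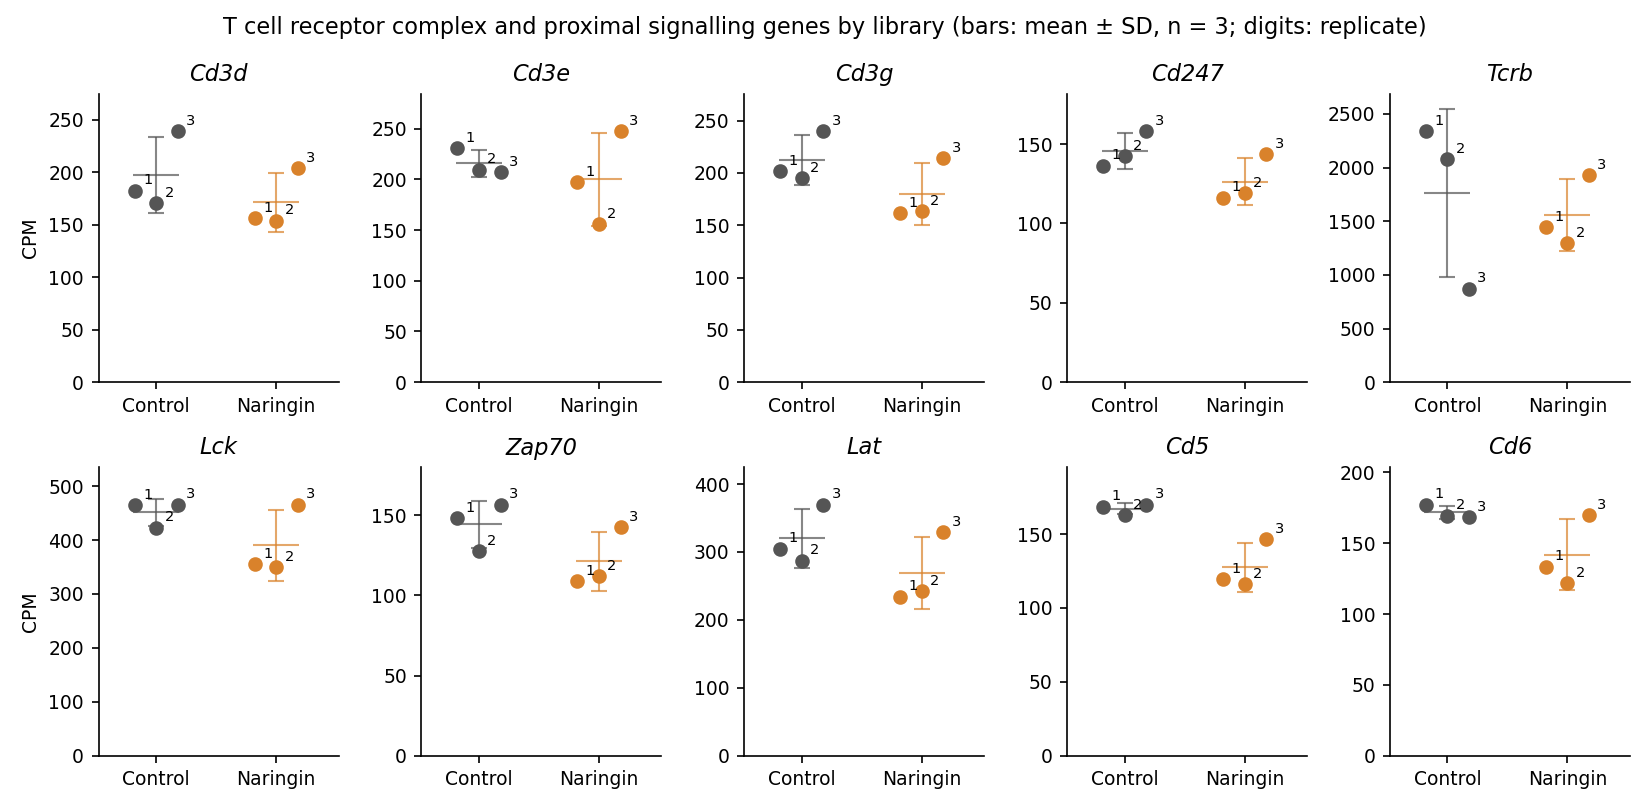
CPM of each of the 10 genes (y axis, from 0) in the 3 Control and 3 Naringin libraries. Points are libraries with their replicate number, and bars give the mean ± SD (n = 3). Cd5 is the panel in which the groups do not overlap (163 CPM or more against 147 CPM or less).

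Across the genes, Naringin 1 and Naringin 2 were the low libraries and Naringin 3 was not. In 9 of 10 genes, Tcrb being the exception, Naringin 1 and Naringin 2 both lay below all 3 Control values, as in 7.55% of tested genes. In 10 of 10, Naringin 3 was the highest Naringin library, and in 9 of 10 it lay inside or above the Control range. The combination of Naringin 1 and 2 below all Controls and Naringin 3 not below was seen in 8 of the 10 genes and in 5.26% of tested genes, a pattern described after the values were seen. The median deviation of the 10 genes from their 6-library means was 0.16, 0.022 and 0.22 in Control and -0.23, -0.26 and 0.15 in Naringin. Without Naringin 3, 9 of 10 genes had groups that did not overlap, against 7.53% of tested genes. This restates the count of Naringin 1 and 2 below all Controls and is not a separate result. The median log2 fold without Naringin 3 was -0.37, with 0 genes past the threshold. The number of genes with groups apart was 2 of 10 without Control 3, against 16.6% of tested genes. Without Control 2 it was 2 of 10, against 5.06%. With Control 1, Naringin 1 or Naringin 2 left out it was 1 of 10, against 5.53%, 4.71% and 3.64%.

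**Figure D3:**
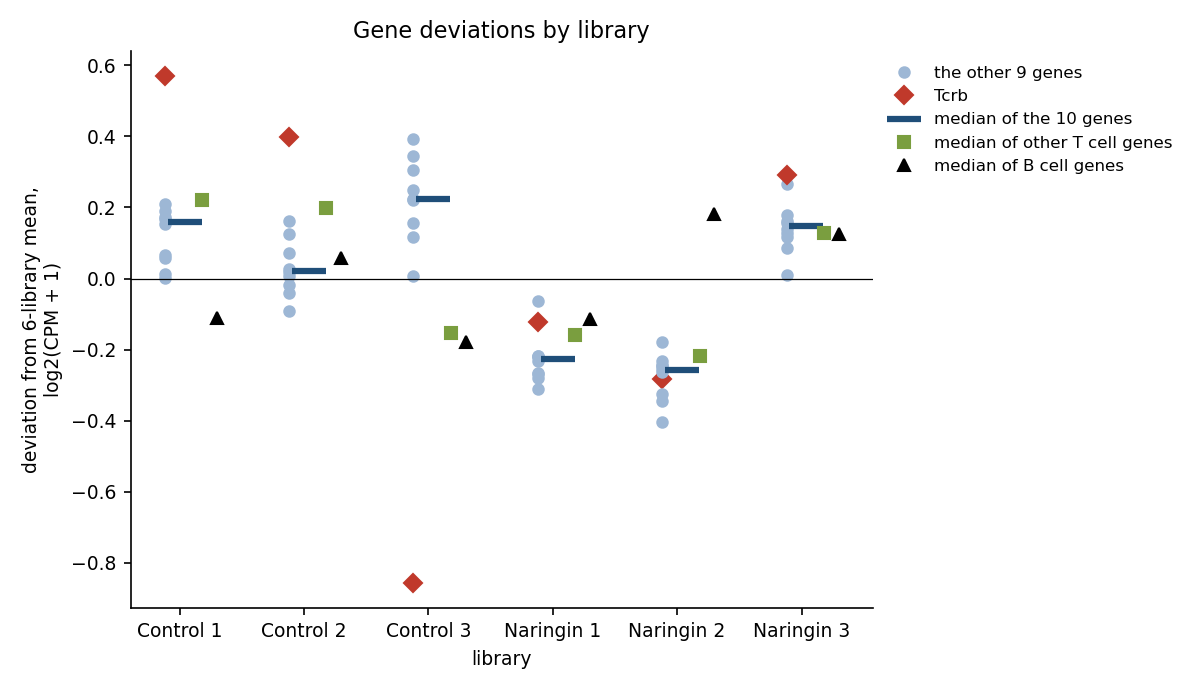
Deviation of each gene's log2(CPM + 1) from its mean over the 6 libraries (y axis) in each library (x axis), with the medians of the 10 genes, of 18 other T cell genes and of 13 B cell genes. The 10 genes are low in Naringin 1 and 2 (medians of -0.23 and -0.26) and not in Naringin 3 (0.15), and Tcrb is low in Control 3.

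Other T cell genes were also low in Naringin 1 and 2, so each of the 10 genes was compared with them. The list holds 18 genes such as the co-receptors Cd4, Cd8a and Cd8b1, the surface protein Thy1 and the transcription factors Tcf7, Lef1 and Bcl11b. Its median deviation was 0.22, 0.20 and -0.15 in Control and -0.16, -0.22 and 0.13 in Naringin. In Control 3 it was below 0, where the median of the 10 genes was above 0. Once that deviation was subtracted from each library, 8 of the 10 genes had a log2 fold below 0, against 10.6% of tested genes, which moved up by this scaling to a median of 0.20. Among the 18 genes that set the scale, 7 had a log2 fold below 0 on it. The median over the 10 genes was -0.061, and 0 of 10 passed in limma (adjusted p from 0.833 to 0.961), against a background of 0%.

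On this T cell scale Cd5 kept the largest difference, a log2 fold of -0.22 with a 95% interval from -0.62 to 0.17, followed by Cd6 at -0.12. The signalling genes Lat, Zap70 and Lck were at -0.090, -0.083 and -0.048. The receptor chains Cd3g, Cd247 and Cd3d were at -0.075, -0.035 and -0.029, and Cd3e and Tcrb were above 0, at 0.038 and 0.096. All 10 intervals held 0, the widest from -0.51 to 0.70 for Tcrb, so changes of that size in either direction are within the error. The median on this scale was 0.082 without Control 3 and between -0.17 and -0.044 without any other single library.

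**Figure D4:**
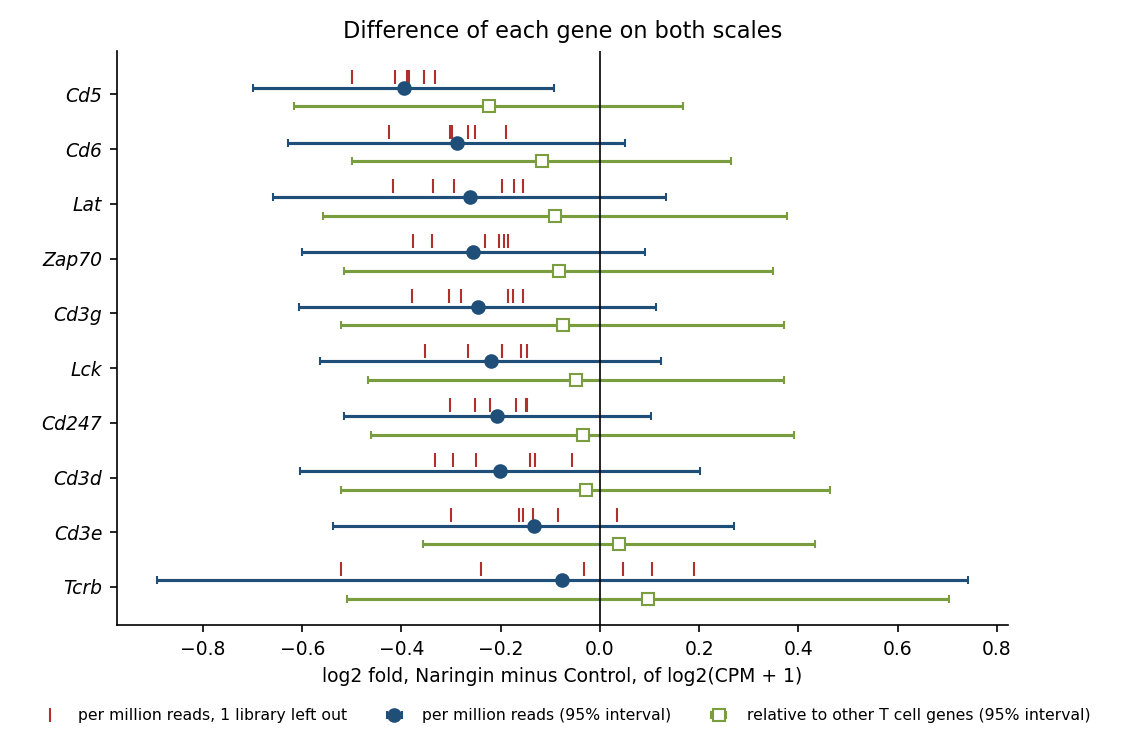
Log2 fold of each gene, Naringin minus Control (x axis), with 95% intervals on the CPM scale (filled points) and relative to other T cell genes (open squares), and the values with each library left out (red ticks). On the CPM scale the 10 points run from -0.40 to -0.075, and the interval of Cd5 is the one that leaves out 0.

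Markers of other cells of the node were measured beside these genes. The 13 B cell markers summed to 4567 to 5120 CPM in Control and 4590.2 to 5629 CPM in Naringin, and 12 of 13 had log2 folds above 0, with 0 past the threshold. Cd3d, Cd3e and Cd3g together, divided by the B cell receptor genes Cd79a and Cd79b, gave 0.507, 0.435 and 0.436 in Control and 0.421, 0.303 and 0.418 in Naringin. These groups did not overlap, with the nearest values 0.421 and 0.435. With the sum of all 13 B cell markers as the denominator the groups overlapped. Naringin 3 (665 over 5533 CPM) then lay above Control 2 (575 over 5120 CPM). The lack of overlap thus held for the Cd79 genes and not for the whole list, and the share of other gene ratios that lie apart was not counted. No p is given since the genes were chosen with earlier results known. The 10 natural killer cell markers summed to 219 to 287 CPM in Control and 244 to 273 CPM in Naringin, and their defining gene Ncr1 lay between 4.01 and 8.75 CPM. Of these 10 genes, 7 had log2 folds above 0, with a median of 0.27. In 3 of the 10 the groups did not overlap in the higher direction, as in 3.36% of tested genes. At an unadjusted p under 0.05 in either direction there were 3 of 10, all of them higher, against 1.43% of tested genes in either direction. After adjustment 0 passed. Macrophage and neutrophil markers, 11 genes led by Csf1r, ranged from 3137 to 5771 CPM and from 2813 to 5438 CPM, with Naringin 3 the lowest library. The 7 dendritic cell markers, led by Flt3, lay at 302 to 338 CPM in Control and 228 to 341 CPM in Naringin. The 9 stromal markers lay at 1538 to 2693 and 1690.4 to 2841 CPM, and the 8 adipocyte markers at 50.1 to 124 and 35.2 to 66.4 CPM. All 6 tested adipocyte markers had log2 folds below 0, with a median of -0.42. Log2 folds were above 0 in 5 of 11 macrophage and neutrophil, 2 of 7 dendritic cell and 5 of 9 stromal markers. In 2 lists the sums did not overlap, both higher in Naringin. The 6 endothelial markers lay at 604 to 912 and 941 to 1088 CPM, with 5 of 6 log2 folds above 0. Their median was 0.13, with Pecam1 at 0.032 and Glycam1 highest at 0.85. The 5 erythroid markers lay at 32.1 to 49.6 and 55.2 to 58.8 CPM, with 5 of 5 above 0 and a median of 0.49. Single genes were apart in the higher direction in 1 of 6 and 2 of 5, against 3.36% of tested genes. At an unadjusted limma p under 0.05 there were 1 of 6 and 3 of 5, all higher, against 1.43% in either direction. None of the markers passed the threshold. No listed marker was at 0 in all libraries. The part of these cell types in the T cell values was not tested.

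Levels were compared between genes per kilobase of the longest coding transcript in GENCODE M21, with Tcrb left out for want of a length. In Control, Lat was highest at 259.5 ± 35.2 CPM per kb, followed by Cd3g at 207 ± 23.7 and Lck at 206 ± 11.2 (SD, n = 3). The SD ranges of neighbours overlapped among these 3 genes. Cd3e at 148 ± 9.04 and Cd3d at 122 ± 22.6 CPM per kb came next, below Lck beyond the SDs but overlapping each other. Zap70 at 64.2 ± 6.60, Cd6 at 56.6 ± 1.58, Cd5 at 55.9 ± 1.24 and Cd247 at 49.3 ± 3.80 CPM per kb formed the low end, where neighbours from Zap70 to Cd5 overlapped and Cd247 lay lower. In Naringin the high end was Lat at 218 ± 42.7, Lck at 179 ± 29.9, Cd3g at 175 ± 29.1, Cd3e at 137 ± 31.5 and Cd3d at 106 ± 17.4 CPM per kb (SD, n = 3). Zap70 at 54.0 ± 8.29, Cd6 at 46.7 ± 8.25, Cd247 at 42.7 ± 5.08 and Cd5 at 42.7 ± 5.60 CPM per kb formed the low end, and neighbours overlapped except between Cd3d and Zap70. The order within the high group depended on the length used: over the total of all annotated exons, Control means ran from 154 CPM per kb for Lck, 116 for Lat and 109 for Cd3d down to 21.6 for Cd6. Under both lengths Lck, Lat and the 3 CD3 genes stood above Zap70, Cd5, Cd6 and Cd247 in the group means.

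Outside the 10 genes, the libraries' ordering was followed most closely by Hdgfl2, Mapk7, Map1s and Dapl1, whose Pearson correlations with the mean of Cd3d, Cd3e and Cd3g over the 6 libraries were 0.99, 0.99, 0.99 and 0.97. These are among the top 5 of 9751 genes with at least 10 CPM, of which 0.933% exceeded 0.9. All values share the same 6 libraries, so the correlations are descriptions only. Among the 10 genes, the correlation with the CD3 mean was 0.96 for Lat, 0.96 for Lck, 0.94 for Zap70 and 0.91 for Cd247. It was 0.88 for Cd6, 0.83 for Cd5 and -0.0073 for Tcrb.

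The rest of the pathway was read from fixed lists, and 0 genes of any list passed the limma threshold in either direction. Among the 8 peptide-MHC ligand genes, 6 had lower and 2 higher means, with a median log2 fold of -0.048. They included the class I chain H2-K1 at -0.14, the invariant chain Cd74 at -0.072, and the class II genes H2-DMa and H2-Ab1 at 0.021 and 0.018. For CD6, the ligand genes Alcam and Cdcp1 had log2 folds of 0.060 and -0.20. Of the other receptor chain rows, 4 of 11 could be tested, 3 lower and 1 higher. Tcra was at -0.32 ± 0.33 (SE), with Control 3 its lowest library. The gamma chain rows Trgc2 and Trgc4 were at -0.19 ± 0.20 and 0.19 ± 0.24 (SE). Their reads per library were few, 72 to 117 for Trgc2 and 32 to 73 for Trgc4.

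Co-receptor and costimulatory genes were split, 5 of 10 having lower means, and their median was -0.071 on the log2 scale. Cd4, which binds MHC class II, stood at 259, 294 and 265 CPM in Control and 244, 213 and 236 CPM in Naringin. Its groups did not overlap in the lower direction, as in 2.29% of tested genes, and its log2 fold was -0.24 ± 0.12 (SE, n = 3 each). The adhesion receptor Cd2 was at -0.15, the phosphatase Ptprc (CD45), which primes Lck, at 0.16, and the costimulator Icos at 0.061. Ptprc stood at 1691, 1643 and 848 CPM in Control and 1500, 1487 and 1460 CPM in Naringin. Every Naringin value of Ptprc lay above Control 3 and below Control 1 and Control 2.

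Proximal kinases and adaptors outside the 10 genes had lower means in 12 of 19 tested genes, and their median log2 fold was -0.077. Rhoh, a GTPase that helps bring ZAP-70 to the receptor, was at -0.14 and the adaptor Skap1 at -0.13. The adaptors Nck1 and Grb2 were at 0.18 and 0.12. These 19 log2 folds ran from -0.16 for Tespa1 to 0.18 for Nck1, while 8 of the 10 genes above lay at -0.20 or lower.

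Inhibitors of receptor signalling had lower means in 11 of 21 genes, with a median log2 fold of -0.00087. The diacylglycerol kinase Dgkz averaged 232 ± 7.18 CPM in Control and 204 ± 11.9 CPM in Naringin (SD, n = 3 each). Its groups did not overlap in the lower direction, as in 2.29% of tested genes, and its log2 fold was -0.19. The transmembrane adaptor Sit1 was at -0.25. Sla (SLAP), an adaptor that promotes loss of the receptor from the cell surface, averaged 148 ± 3.70 and 174 ± 4.25 CPM (SD, n = 3 each). Its groups did not overlap in the higher direction, as in 3.36% of tested genes, and its log2 fold was 0.24 ± 0.11 (SE). The inhibitory receptor Pdcd1 (PD-1) was at 0.26.

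Downstream signalling genes had lower means in 9 of 18, and their median log2 fold was 0.0078. The calcium-regulated factor Nfatc2 and the GTPase Rac2 were at -0.17 and -0.13. Bcl10 and Malt1, partners in the complex that links the receptor to NF-kB, were at 0.15 and 0.31. Malt1 stood at 160, 154 and 79.2 CPM in Control and 140, 164 and 161 CPM in Naringin. Control 3 was the lowest library for both Malt1 and Nfatc2.

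Of the genes that receptor signalling induces, 10 of 15 had lower means, with a median log2 fold of -0.10. The early response factor Egr1 stood at 73.2, 65.9 and 41.8 CPM in Control and 40.5, 36.1 and 53.0 CPM in Naringin, with Control 3 inside the Naringin range. Its log2 fold was -0.45 ± 0.23 (SE, n = 3 each). The costimulatory receptor Tnfrsf4 (OX40) was at -0.20, and the activation marker Cd69 and the factor Irf4 were at 0.24 and 0.19. Among the 18 other T cell genes, 13 had lower means with a median log2 fold of -0.15, with Cd4 and Thy1 at -0.24 and -0.23 and Il7r, the receptor for the survival cytokine interleukin 7, at 0.15. Il7r stood at 192, 214 and 123 CPM in Control and 163, 189 and 225 CPM in Naringin. Control 3 was the lowest library for Il7r, Cd69 and Irf4.

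**Figure D5:**
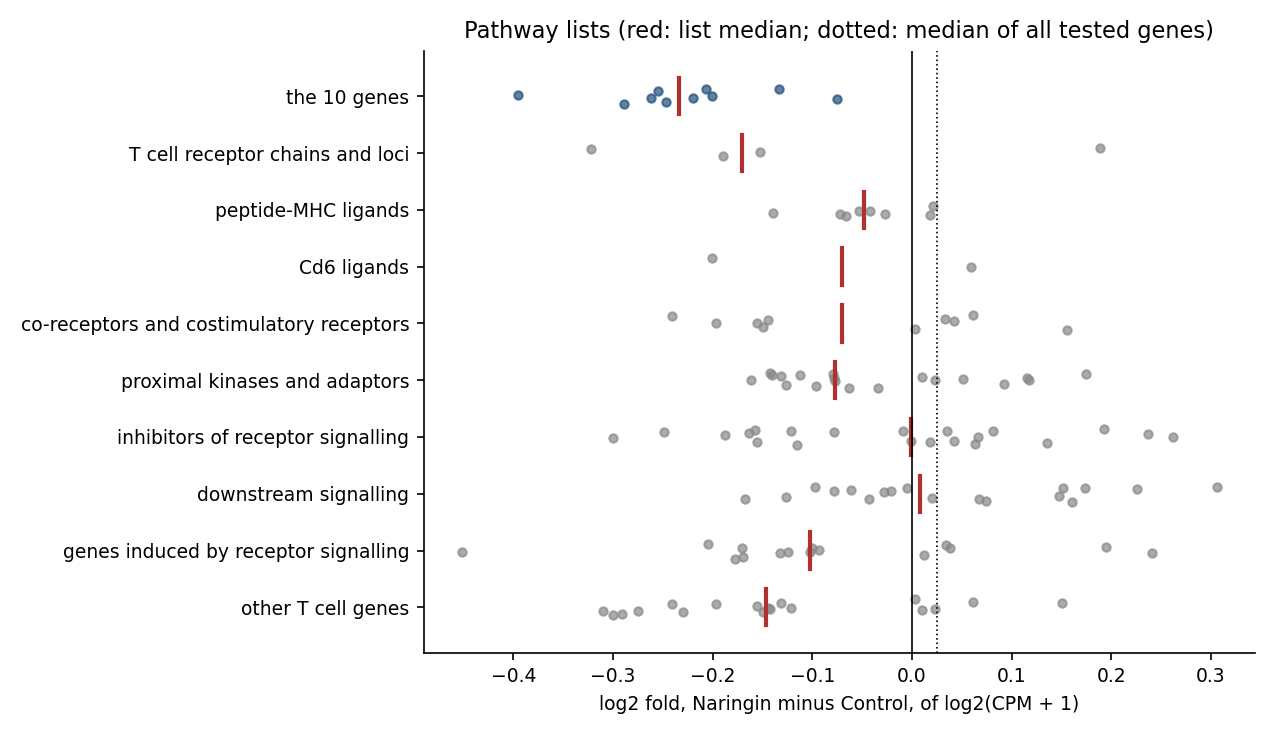
Log2 fold, Naringin minus Control (x axis), of every tested gene in the 10 genes and in each pathway list (rows), with list medians in red and the median of all tested genes dotted. The 10 genes have a median of -0.23, and the medians of the other lists run from -0.17 to 0.0078.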

How the data were processed

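Per the submitters' processing notes, reads were handled with Trimmomatic 0.39, STAR 2.7.9a, featureCounts of Subread 1.6.0 and edgeR 3.40.0 on mouse build mm39. Neither annotation nor strand setting is named there, so overlapping genes and antisense partners may share reads. Values in the deposited table are CPM, which the authors scaled to 1000000 per library. Every value above 0 was a whole number of reads within 0.01 (100% of values), so reads were recovered for count tests. Libraries differed beyond sampling noise (chi-square per degree of freedom from 7.68 to 61.6).

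A gene was tested if its mean was 1 CPM or more, on the scale log2(CPM + 1) with limma 3.58.1 in R 4.3.3 (mean-variance trend, robust, 2-sided). Alternatives included edgeR 4.0.16 and DESeq2 1.42.0 on recovered reads. The steps were checked on simulated reads. The 10 genes and the lists were chosen with earlier results of these data known. The named pathway genes are the 2 with the smallest p in each direction per list. The genes like CD3 have the highest correlation among genes of at least 10 CPM without Gm or Rik names. One gene that this rule names is not reported here. Cd8a, Cd8b1, Tcf7, Lef1, Bcl11b, Tespa1, Cd209g, Cd209f, Fgf23 and Cxcr4 were named after their values were seen.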

Additional observations from a re-analysis of the deposited data

How the results depend on the processing

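Over 20 alternatives, 0 of the 10 genes passed the threshold (adjusted p from 0.398 upwards), and 194 of 198 log2 folds of single genes kept their direction. Part of these could not change, since the replicate block, limma without the trend and other CPM filters leave a log2 fold as it is. The 4 that changed direction all came from leaving a library out. They were Tcrb without Control 1 (0.19), Control 2 (0.10) and Naringin 2 (0.047), and Cd3e without Naringin 2 (0.034). With each library left out, Tcrb ran from -0.52 to 0.19 and Cd3e from -0.30 to 0.034. The number of genes with lower means was 8 to 10 and the median log2 fold -0.37 to -0.17 when each library was left out. The number with groups apart in the lower direction ran from 1 to 9. It was 2 without Control 2 (5.06% of tested genes), 2 without Control 3 (16.6%) and 9 without Naringin 3 (7.53%). The last of these restates the count of Naringin 1 and 2 below all Controls. Over all genes, DESeq2 called 3 (Cd209g, Cd209f and Fgf23). Leaving out each library gave 0 to 1 calls, with Cxcr4 called without Control 3. Cxcr4 was also the 1 call with the length trend removed and Control 3 left out, an alternative chosen after seeing the data, and the cause was not tested. With the replicate number as a block, 0 genes passed and the median log2 fold was -0.23. Deviations of same-numbered libraries from their group means correlated at -0.26, -0.019 and -0.27, and the block changed no other call. Centring each small group constrains such correlations, so they cannot show whether the numbers pair the libraries. Scaling and pseudocount changes moved the median to between -0.28 and -0.23, and removing the length trend gave -0.26, or -0.20 with Control 3 also left out.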
